A study of Mus musculus with 27 samples.

Results

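Immediate-early genes are switched on within minutes of a signal without new protein synthesis, and their mRNAs are usually short-lived. Many encode nuclear factors (the FOS and JUN subunits of AP-1, the EGR zinc-finger factors, the NR4A orphan receptors, the KLF factors), and others encode proteins that shut the signal down again, such as the MAP kinase phosphatases of the DUSP family, SOCS3 and the mRNA-decay factor ZFP36. Heat-shock genes encode chaperones that are induced when proteins misfold. Both kinds of gene are also known to be induced in macrophages by enzymatic digestion and sorting of a tissue, so their level in a sorted cell can come from the animal or from the preparation. Here 39 immediate-early and stress genes, listed by symbol and matched to the Ensembl identifiers of the count table, were described across all samples; all 39 were found among 41388 genes, and all 39 were among the 12661 genes that passed the filter on low counts.

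The samples are bulk RNA-seq libraries of macrophages sorted from the dura mater, the outermost membrane around the brain, of Rag1 ko mice on the B6 background, aged 16 to 19 weeks. Rag1 ko mice lack mature T and B cells, and every animal of every group, controls included, carried this deletion. T cells had been given to 6 groups 6.5 weeks before: Tbet ko T cells (2 libraries), IFNg ko T cells (2), IL17AF ko T cells (2), T cells lacking both IL6Ra and IL21R (7, IL6Ra/IL21R ko below), IL22 ko T cells (3) and unmodified B6 T cells (5, total T below); the last group was left without T cells at steady state (6, no T below). The knockouts are therefore in the transferred T cells and not in the macrophages. The Tbet ko, IFNg ko and IL17AF ko libraries were all from females, and the other groups held 3 females and 4 males (IL6Ra/IL21R ko), 2 and 1 (IL22 ko), 4 and 1 (total T) and 4 and 2 (no T). The labels do not say that each library is a separate animal, some column names list several numbers as a pool would, and the 2 Tbet ko columns carry the same number, so each p-value weighs a difference only against the scatter of these columns. In bulk RNA, fewer cells of a kind and less RNA per cell cannot be told apart.

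Libraries held 6902602 to 19966749 counts and 13225 to 17015 detected genes. They fell into 3 sets by the level of 79 ribosomal-protein genes, whose mean was 8.28 to 8.57 log2 CPM in set A, 5.63 to 6.02 in set B and 5.06 to 5.22 in set C (CPM, counts scaled to TMM-adjusted library sizes). The total T group held 3 set A and 2 set B libraries and the no T group 4 and 2, while 6 of 7 IL6Ra/IL21R ko and all 3 IL22 ko libraries were set B, and set C held the Tbet ko, IFNg ko and IL17AF ko groups and IL6Ra/IL21R ko M4. Main results below are also given with the sets taken into account. All 12 macrophage markers listed had counts in every library, with sums of 30658 to 35683 CPM in IL6Ra/IL21R ko, 25739 to 34686 CPM in total T and 27990 to 31589 CPM in no T libraries; between total T and no T, 3 of these 12 were higher and 4 lower. The 6 fibroblast markers summed to 2217 to 3607 CPM in the Tbet ko, IFNg ko and IL17AF ko libraries, 364 to 3540 CPM in IL6Ra/IL21R ko, 533 to 714 CPM in IL22 ko, 244 to 400 CPM in total T and 428 to 1461 CPM in no T. T-cell, B-cell and NK-cell markers stayed at or below 235, 58.0 and 5.34 CPM in sum in every library, and those of mast, endothelial, mural, erythroid and osteoclast cells at or below 490 CPM. Ly6g, the defining neutrophil marker, was at 0 in every library outside the no T group, and the neutrophil sum was at most 228 CPM outside the no T group, where it ranged from 0 to 1808 CPM.

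The 39 genes were among the most abundant mRNAs of these cells. Their median level was 164 CPM per kb of exon, against 4.56 CPM per kb over all genes tested, and 31 of 39 were above the 90th percentile of genes on this scale. Junb, an AP-1 subunit, had the highest level per length (2000 CPM per kb), followed by Zfp36 (1570), Fos (1324) and Ier3, a survival and feedback factor (906). At the other end were Egr3 (9.18), the growth regulator Myc (14.3), Nr4a2 (18.9) and Nr4a3 (23.2 CPM per kb). Together the 39 genes took 3.95 to 4.82% of all counts in the Tbet ko, IFNg ko and IL17AF ko libraries, 4.13 to 5.22% in IL6Ra/IL21R ko, 3.44 to 3.98% in IL22 ko, 2.67 to 3.76% in total T and 3.93 to 4.61% in no T. The total T and no T ranges of this share do not overlap, but the share is weighted to the most abundant of the 39. The mean log2 level, which weighs each of the 39 genes alike, did overlap. It was 8.60 to 9.07 in total T and 8.92 to 8.9999 in no T, with total T F3 above every no T library. The median spread between libraries of one group was 0.32 log2 units over the 39 genes and 0.34 over all genes tested, and the widest spreads were those of Hspa1b (1.40) and Hspa1a (0.92).

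**Figure D1:**
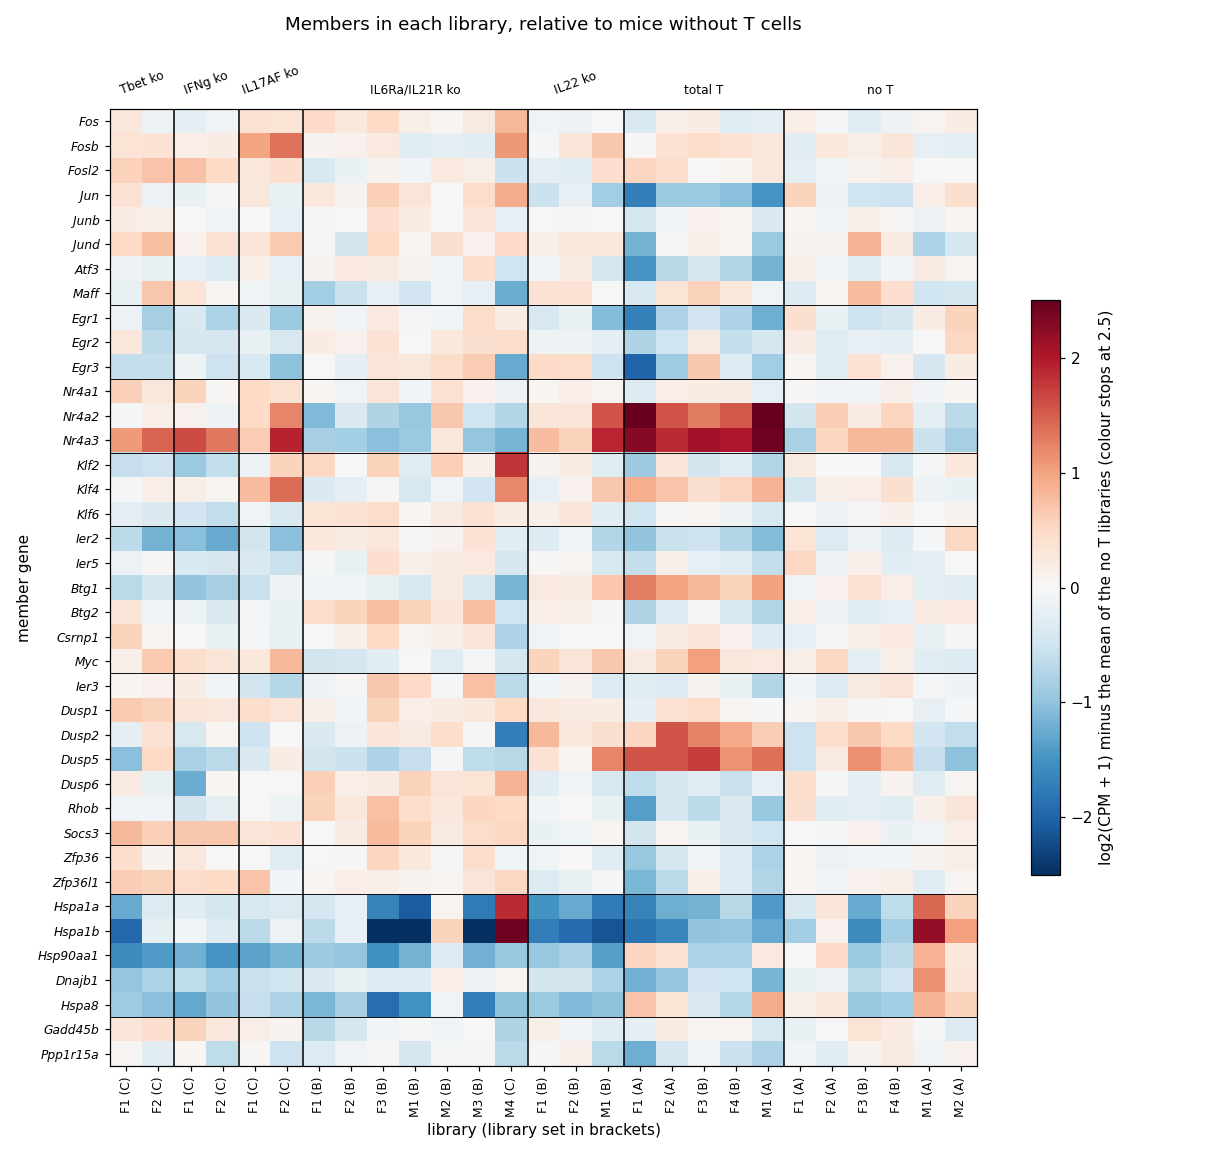
Colour map of the 39 genes (rows, ordered by role) in the 27 libraries (columns, by T-cell group, with the library set in brackets), as log2(CPM + 1) minus the mean of the 6 no T libraries. In the 5 total T libraries Nr4a2, Nr4a3, Dusp5 and Btg1 are red and Jun, Egr1 and Atf3 blue, and Hspa1a and Hspa1b show the widest range between single libraries.

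The genes are compact. Their main transcripts have a median of 3 exons and span a median of 4258 bases of the genome, against 9 exons and 22634 bases over 12093 tested genes (GENCODE annotation of GRCm38). The AU-rich nonamer TTATTTATT, a sequence that ZFP36 proteins are known to bind in order to hasten the decay of an mRNA, was found in the 3′ untranslated region of 8 of 39 (20.5%), against 7.06% of the 12093 genes. The sites below are in the most abundant FOS subunit, a MAP kinase phosphatase, ZFP36 itself and the translation regulator Ppp1r15a, with the nonamer in capitals (GRCm38, given 5′ to 3′ on the gene's strand). Fos and Zfp36 have 1 such site each, Dusp1 has 2, and the 71-base 3′ untranslated region of Ppp1r15a has 4 that overlap.
Fos, chr12:85477107-85477127, + strand: ttcaatTTATTTATTaagatg
Dusp1, chr17:26506163-26506183, - strand: tggtccTTATTTATTtaacac
Zfp36, chr7:28376955-28376975, - strand: acgactTTATTTATTgtatta
Ppp1r15a, chr7:45522961-45522981, - strand: ttcctaTTATTTATTtattta

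Promoter sequences (RefSeq, GRCm38.p6, 250 bases before to 50 after the start) were at hand for 33 of the 39 genes; Ier2, Hsp90aa1, Egr3, Myc, Hspa8 and Egr1 had none. The sequence TGACGT, the core of the cAMP response element that CREB and ATF factors bind, was found on either strand in 10 of 33 genes (30.3%), against 8.37% of the 27025 genes with a promoter in the table. The full element TGACGTCA, which contains it, was found in 4 (Btg2, Dusp1, Maff and Ppp1r15a), against 2.03% of genes. The sequence GCGNGGGCG, bound by EGR factors, was found in 12 of 33 (36.4%), against 6.27%, and the CArG box, the site of serum response factor, in Dusp5, Egr2 and Zfp36, against 1.81%. The AP-1 site TGANTCA was in 2 of 33, against 8.97% of genes, and the paired heat-shock sequence GAANNTTC in Hspa1a, Hspa1b, Fosl2 and Jun, against 9.04%. The promoters of these genes had a median GC content of 63.7%, against 52.7% for all promoters, which bears on the GC-rich EGR motif. The promoters printed are those of genes that the comparisons below turn on: Nr4a2, Nr4a3 and Dusp5 were higher with total T cells, Atf3 and Zfp36 were lower, and Fos passed the test in neither direction. Cores of the cAMP response element (TGACGT or ACGTCA), CArG boxes and EGR motifs are in capitals.
Fos, chr12:85473640-85473939, + strand: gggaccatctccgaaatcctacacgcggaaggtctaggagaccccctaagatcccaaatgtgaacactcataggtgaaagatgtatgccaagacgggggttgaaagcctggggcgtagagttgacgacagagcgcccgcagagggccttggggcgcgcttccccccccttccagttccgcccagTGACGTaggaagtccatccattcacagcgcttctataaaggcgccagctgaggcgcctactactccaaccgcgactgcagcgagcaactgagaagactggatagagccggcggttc
Atf3, chr1:191183284-191183583, - strand: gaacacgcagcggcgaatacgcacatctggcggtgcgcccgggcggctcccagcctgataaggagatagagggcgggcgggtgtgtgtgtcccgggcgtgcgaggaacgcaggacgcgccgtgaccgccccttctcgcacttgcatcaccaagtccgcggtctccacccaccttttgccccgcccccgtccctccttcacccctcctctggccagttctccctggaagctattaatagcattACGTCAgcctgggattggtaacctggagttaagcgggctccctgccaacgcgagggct
Zfp36, chr7:28379179-28379478, - strand: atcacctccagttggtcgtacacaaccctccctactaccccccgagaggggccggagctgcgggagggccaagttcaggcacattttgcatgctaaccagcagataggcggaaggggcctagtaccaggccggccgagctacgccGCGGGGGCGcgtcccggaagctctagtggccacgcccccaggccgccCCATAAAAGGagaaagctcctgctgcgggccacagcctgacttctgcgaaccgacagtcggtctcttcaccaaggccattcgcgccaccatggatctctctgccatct
Nr4a2, chr2:57123954-57124253, - strand: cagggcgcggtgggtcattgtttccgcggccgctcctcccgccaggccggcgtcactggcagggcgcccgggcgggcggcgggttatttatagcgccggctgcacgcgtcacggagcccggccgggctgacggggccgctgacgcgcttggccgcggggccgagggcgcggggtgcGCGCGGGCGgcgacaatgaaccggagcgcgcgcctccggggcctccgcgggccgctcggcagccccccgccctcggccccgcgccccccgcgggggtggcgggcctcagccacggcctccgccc
Nr4a3, chr4:48045055-48045354, + strand: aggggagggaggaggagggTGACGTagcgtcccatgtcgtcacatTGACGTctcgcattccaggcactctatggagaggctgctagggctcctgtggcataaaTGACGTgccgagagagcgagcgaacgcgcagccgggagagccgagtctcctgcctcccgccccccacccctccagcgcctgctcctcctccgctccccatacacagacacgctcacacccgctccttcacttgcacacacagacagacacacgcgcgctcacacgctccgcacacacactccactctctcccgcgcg
Dusp5, chr19:53528895-53529194, + strand: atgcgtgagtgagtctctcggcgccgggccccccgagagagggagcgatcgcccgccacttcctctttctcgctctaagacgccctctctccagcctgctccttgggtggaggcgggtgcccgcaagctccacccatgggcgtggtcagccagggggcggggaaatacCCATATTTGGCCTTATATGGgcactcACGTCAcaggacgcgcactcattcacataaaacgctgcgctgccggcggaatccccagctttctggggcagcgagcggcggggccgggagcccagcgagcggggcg
Nr4a3 carries 3 such cores, Fos and Atf3 1 each, and Dusp5 has 1 beside 2 adjoining CArG boxes. Zfp36 has a CArG box and an EGR motif, and Nr4a2 an EGR motif alone. A match is a description of the letters and was not tested as a site.

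The first comparison asked how the 39 genes differ between macrophages of hosts given total T cells and of hosts left without any. They did not move as one block: 15 passed the test, 6 higher (Nr4a2, Nr4a3, Dusp5, Btg1, Dusp2 and Klf4) and 9 lower (Jun, Egr1, Atf3, Dnajb1, Ier2, Rhob, Ppp1r15a, Zfp36 and Zfp36l1) with total T cells. Over all 12661 genes 21.0% passed (11.7% higher, 9.39% lower). The test was edgeR's quasi-likelihood test with sex as a term, and q is its Benjamini-Hochberg adjusted p over all genes tested, called below 0.05. The median log2 fold change of the 39 genes was -0.27, against -0.02 for all genes tested. In 7 of the 39 genes the libraries of the 2 groups did not overlap, against 10.6% of all genes.

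Among the AP-1 genes and their partners, 2 of 8 fell and none rose. Jun, the main partner of FOS in AP-1, had 570, 667, 900, 974 and 981 CPM in the total T libraries, against 1300 to 2727 CPM (median 1899) in the no T libraries. Every total T library was below every no T library, and Jun fell by 1.23 ± 0.22 (SE) on the log2 scale (q = 0.000309). Atf3, a stress-induced leucine-zipper factor that can pair with JUN, had 601, 733, 1010, 1034 and 1256 CPM in total T, against 1397 to 1927 CPM (median 1669) in no T. The groups did not overlap here either, and the fall was 0.89 ± 0.17 (q = 0.000584). Fos showed no such shift, with 2226, 2347, 2449, 3170 and 3287 CPM in total T, against 2394 to 3278 CPM (median 2920) in no T. Its log2 fold change was -0.10 (95% interval -0.39 to 0.18), and that of Junb, the most abundant per length, was -0.15 (-0.38 to 0.08). Fosb, Fosl2, Jund and Maff lay between -0.39 and 0.29 and did not pass.

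Among the EGR genes, 1 of 3 fell. Egr1, a zinc-finger factor that is among the first induced by growth factors, had 829, 1145, 1551, 1561 and 1906 CPM in total T, against 1860 to 3896 CPM (median 2702) in no T. Only the highest total T library reached the lowest no T library, and the fall was 0.98 ± 0.23 (q = 0.00328). Egr2 and Egr3 had log2 fold changes of -0.37 and -0.50 and did not pass. The NR4A genes went the other way in 2 of 3 cases. Nr4a2 had 109, 130, 132, 290 and 315 CPM in total T, against 27.7 to 67.5 CPM (median 44.0) in no T. Nr4a3 had 244, 272, 288, 326 and 363 CPM in total T, against 36.8 to 119 CPM (median 71.2) in no T. Neither gene's groups overlapped, and the rises were 2.05 ± 0.34 (q = 0.000177) and 1.98 ± 0.34 (q = 0.000266), the largest 2 of the 39 genes. Nr4a1, the most abundant of the 3, had 642, 699, 915, 925 and 927 CPM in total T, against 768 to 891 CPM (median 800) in no T, and a log2 fold change of 0.01 (95% interval -0.24 to 0.26).

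Among the KLF genes, Klf4 rose and Klf2 and Klf6 did not pass. Klf4, a factor of macrophage and epithelial differentiation, had 311, 341, 386, 427 and 441 CPM in total T, against 173 to 312 CPM (median 239) in no T, a rise of 0.69 ± 0.24 (q = 0.0392). Only the lowest total T library and the highest no T library touched. Of the 6 other nuclear factors 1 rose and 1 fell. Btg1, an antiproliferative protein that binds the CCR4-NOT deadenylase, had 796, 951, 1071, 1086 and 1313 CPM in total T, against 442 to 702 CPM (median 538) in no T. Its relative Btg2 had 1274, 1292, 1624, 1704 and 2063 CPM in total T, against 1778 to 2545 CPM (median 2160) in no T. The 2 relatives therefore differ in sign: Btg1 rose by 0.93 ± 0.18 (q = 0.000746) without overlap of its groups, and Btg2 had a log2 fold change of -0.46 ± 0.17 that missed the threshold (q = 0.0629). Ier2, a nuclear immediate-early protein, had 378, 405, 481, 545 and 555 CPM in total T, against 627 to 1139 CPM (median 749) in no T, and fell by 0.82 ± 0.17 (q = 0.00172). Ier5, Csrnp1 and Myc did not pass.

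Of the 7 feedback genes 2 rose and 1 fell. Dusp5, a nuclear phosphatase of ERK, had 143, 172, 197, 198 and 219 CPM in total T, against 31.8 to 146 CPM (median 60.7) in no T. Dusp2, another nuclear MAP kinase phosphatase, had 168, 179, 225, 277 and 348 CPM in total T, against 75.5 to 187 CPM (median 120) in no T. The rises were 1.30 ± 0.32 (q = 0.00462) and 0.92 ± 0.28 (q = 0.0231), with the highest no T library inside the total T range for both genes. Rhob, an endosomal GTPase of the early response, had 342, 461, 570, 663 and 691 CPM in total T, against 724 to 1179 CPM (median 863) in no T. Its groups did not overlap and it fell by 0.74 ± 0.16 (q = 0.00179). Dusp1, the most abundant phosphatase, had a log2 fold change of 0.13 (95% interval -0.11 to 0.38), and Dusp6, Socs3 and Ier3 did not pass either.

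Both RNA-decay genes fell. Zfp36, which binds AU-rich elements such as those printed above, had 2866, 3188, 4111, 4398 and 5085 CPM in total T, against 4941 to 6113 CPM (median 5463) in no T. Its relative Zfp36l1 had 209, 276, 291, 368 and 507 CPM in total T, against 374 to 508 CPM (median 480) in no T. The falls were 0.50 ± 0.14 (q = 0.0155) and 0.49 ± 0.17 (q = 0.0393), and in both genes 1 total T library lay within the no T range. Of the stress genes, Ppp1r15a, which directs a phosphatase to the translation factor eIF2α, had 182, 250, 294, 312 and 408 CPM in total T, against 354 to 498 CPM (median 428) in no T. It fell by 0.60 ± 0.18 (q = 0.0194). Gadd45b, a stress sensor, had 303, 342, 419, 421 and 463 CPM in total T, against 317 to 508 CPM (median 393) in no T, and did not pass.

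**Figure D2:**
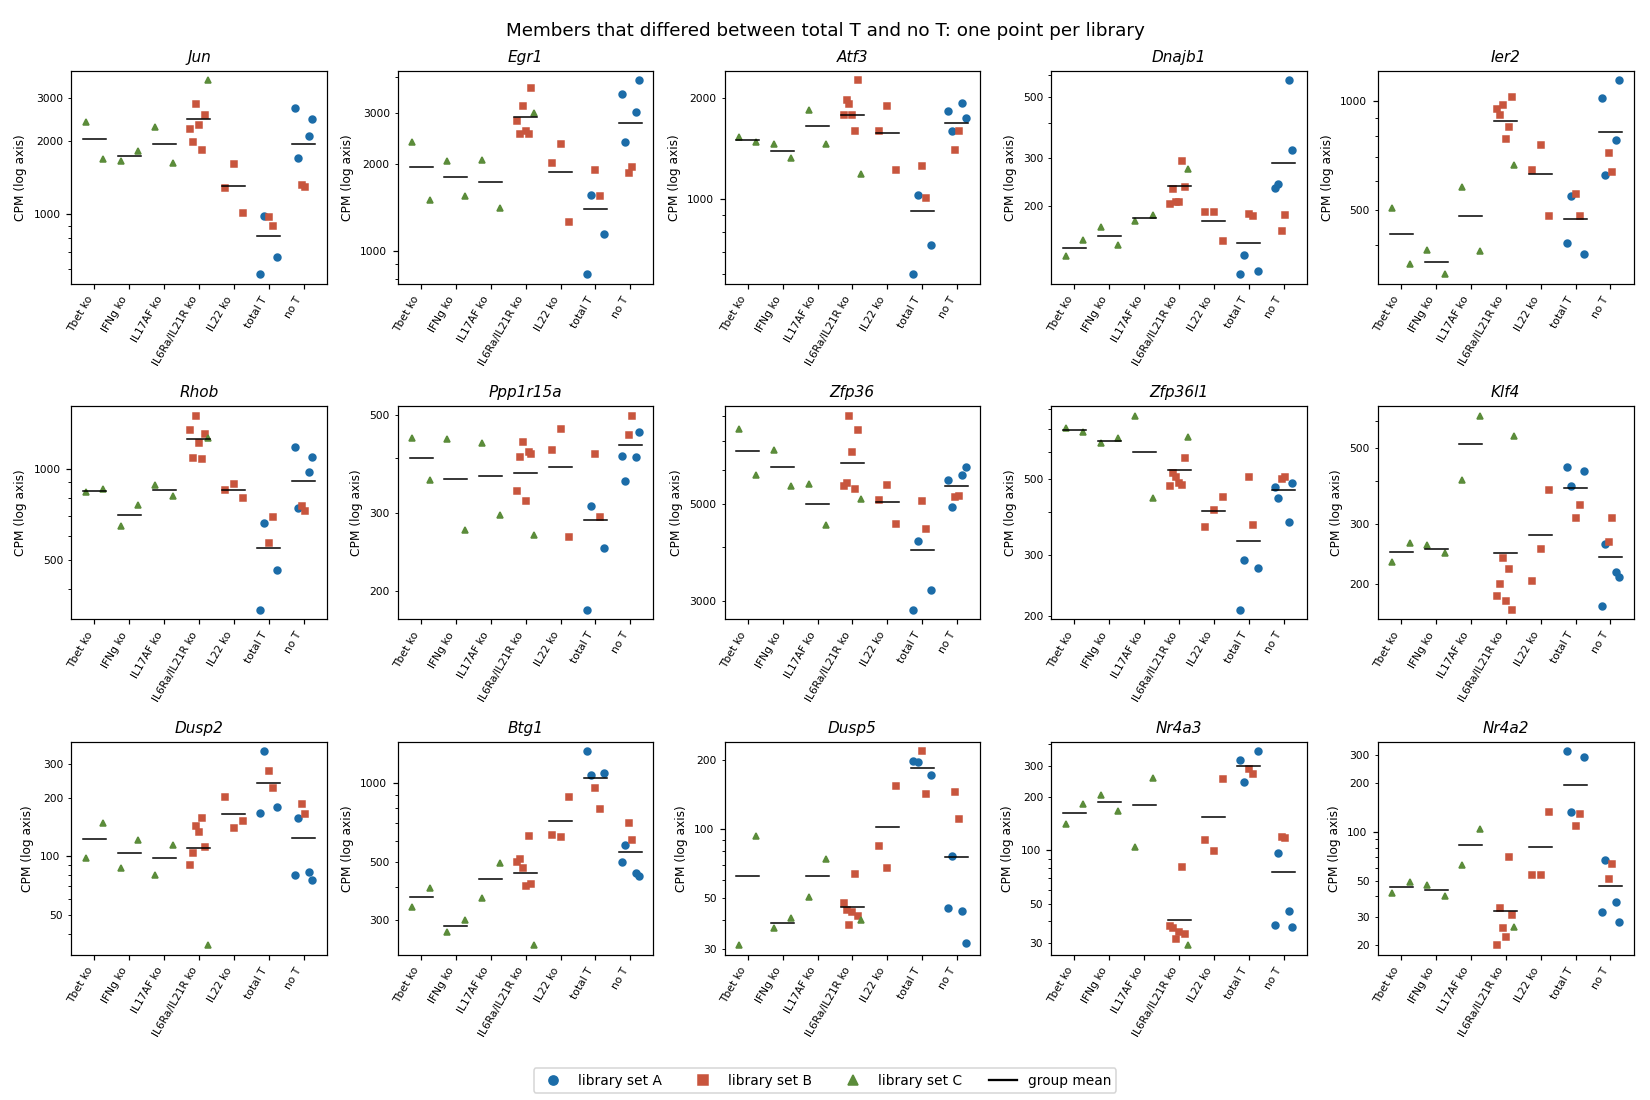
Level in CPM (log axis) of the 15 genes that passed the test between total T and no T, ordered from the largest fall (Jun) to the largest rise (Nr4a2), with 1 point per library, the library set as symbol and a bar at the group mean. Total T libraries lie below no T libraries for Jun (570 to 981 against 1300 to 2727 CPM) and above them for Nr4a3 (244 to 363 against 36.8 to 119 CPM).

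The estimates were larger in set A than in set B. With only set A (3 total T and 4 no T libraries) 21 of the 39 genes passed, including all 15, against 16.2% of all genes tested. With only set B (2 and 2 libraries) none passed, against 0.746% of all genes. There, 6 had an unadjusted p below 0.05, against 15.6% of all genes. Jun fell by 1.63 in set A and by 0.50 in set B, Egr1 by 1.43 and by 0.15, and Nr4a3 rose by 2.51 and by 1.23. All 15 changes were smaller in set B, and Dnajb1 turned sign, at 0.08. The difference between the sets was itself tested as an interaction: 0 of 12780 genes and 0 of the 39 passed, 1347 genes and 18 of the 39 had an unadjusted p below 0.05, and the lowest q among the 39 was 0.33. Without total T F2, 6 of the 39 passed that interaction test, and the share over all genes in that fit is not given here. With library set as a term beside T cells and sex, 17 of the 39 passed, against 27% of all genes: the same 15 with Btg2 and Hspa1a. With females alone 9 passed, against 12.4%; Dusp2, Klf4, Zfp36, Zfp36l1, Dnajb1 and Ppp1r15a were then not called.

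Single libraries decided some of the weaker calls. Dusp2 was not called without no T F1, no T M2 or total T F2 (log2 fold changes of 0.80, 0.84 and 0.76), Zfp36 without total T F1 or M1 (-0.41 and -0.44), and Ppp1r15a without total T F1 (-0.47). Klf4 was not called without no T F1, M1 or M2 or total T F1, F2 or M1 (0.61 to 0.68). Zfp36l1 was not called without no T F1, F3, F4 or M2 or total T F1, F2 or M1 (-0.49 to -0.37). Of the 6 fibroblast markers 2, Col1a1 and Col1a2, were also lower in total T than in no T, and 3 of 6 dendritic-cell markers (Xcr1, Clec9a and Ccr7) were higher, with sums of 77.3 to 233 CPM in total T, against 86.2 to 146 CPM in no T. The part of these cells in the result was not tested.

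**Figure D3:**
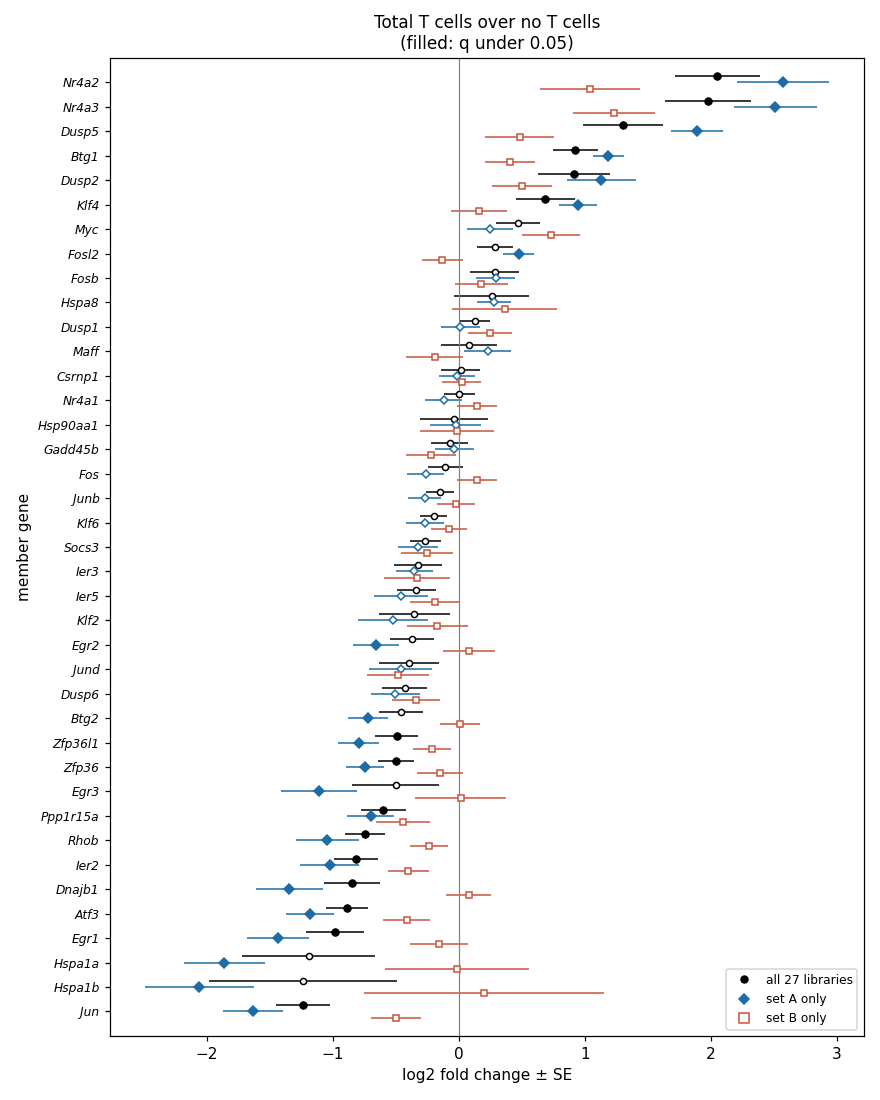
Log2 fold change ± SE of each of the 39 genes in total T over no T, in all 27 libraries, in set A only and in set B only; filled symbols have q below 0.05. Set B estimates lie nearer 0 than set A estimates for Jun (-0.50 against -1.63) and for Nr4a3 (1.23 against 2.51), and no set B symbol is filled.

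The second comparison asked what changes when the transferred T cells lack IL6Ra and IL21R, receptors for cytokines that help T cells become IL-17 producers. Against total T, 26 of the 39 genes passed, 16 higher and 10 lower in IL6Ra/IL21R ko, while 28.2% of all genes passed (13.1% higher, 15.1% lower). The median log2 fold change was 0.47, against 0.03 for all genes tested. The libraries did not overlap for 13 of the 39, against 10.8% of all genes. This comparison uses the same 5 total T libraries as the first one, so a value that is low or high in them moves both comparisons in opposite directions.

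Among the AP-1 genes 3 rose and 1 fell. Jun had 1833 to 3534 CPM (median 2328) in IL6Ra/IL21R ko, against the 570 to 981 CPM of total T, a rise of 1.58 ± 0.22 (q = 1.91e-05). Atf3 rose by 1.00 ± 0.17 (q = 0.000112), with 1189 to 2253 CPM (median 1780) in IL6Ra/IL21R ko, against 601 to 1256 CPM in total T. The groups were apart for Jun and touched for Atf3, through IL6Ra/IL21R ko M4 and total T F3. Fos, with 2988 to 5120 CPM (median 3455) in IL6Ra/IL21R ko, against 2226 to 3287 CPM in total T, rose by 0.47 ± 0.14 (q = 0.0128). Fosl2, a FOS relative, had 581 to 1004 CPM (median 802) in IL6Ra/IL21R ko, against 836, 871, 1031, 1143 and 1222 CPM in total T, and fell by 0.41 ± 0.14 (q = 0.0314). Junb had 3980 to 6135 CPM (median 4566) in IL6Ra/IL21R ko, against 3351, 3573, 4346, 4723 and 4913 CPM in total T, and did not pass. Of the EGR genes, Egr1 had 2535 to 3673 CPM (median 2826) in IL6Ra/IL21R ko, against 829 to 1906 CPM in total T, and rose by 1.05 ± 0.23 (q = 0.00122) without overlap. Egr2 had 226 to 305 CPM (median 272) in IL6Ra/IL21R ko, against 133, 149, 159, 169 and 265 CPM in total T, where F3 was the one library inside the IL6Ra/IL21R ko range, and rose by 0.58 ± 0.18 (q = 0.0148).

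The largest falls were those of Nr4a3, Nr4a2 and Dusp5, which had the largest rises in total T over no T. Nr4a3 had 29.1 to 80.9 CPM (median 34.7) in IL6Ra/IL21R ko, against 244 to 363 CPM in total T, and fell by 2.93 ± 0.35 (q = 5.3e-06). Nr4a2 had 20.02 to 70.4 CPM (median 26.0) in IL6Ra/IL21R ko, against 109 to 315 CPM in total T, and fell by 2.71 ± 0.34 (q = 7.11e-06). Dusp5 had 38.0 to 64.0 CPM (median 43.7) in IL6Ra/IL21R ko, against 143 to 219 CPM in total T, and fell by 1.96 ± 0.32 (q = 8.93e-05). The highest IL6Ra/IL21R ko library was below the lowest total T library for all 3 genes, and that highest library was M2 each time. Nr4a1 stood apart from its relatives here too, with 730 to 1057 CPM (median 843) in IL6Ra/IL21R ko, against 642 to 927 CPM in total T, and a log2 fold change of 0.10 ± 0.12.

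Klf2 and Klf6 rose and Klf4 fell. Klf2, a factor that restrains inflammatory gene expression in myeloid cells, had 208 to 888 CPM (median 371) in IL6Ra/IL21R ko, against 136, 155, 187, 216 and 320 CPM in total T, and rose by 0.94 ± 0.29 (q = 0.0168). Klf6, the most abundant KLF, had 1715 to 2272 CPM (median 2086) in IL6Ra/IL21R ko, against 1175, 1253, 1516, 1680 and 1726 CPM in total T, and rose by 0.52 ± 0.11 (q = 0.000732). Klf4 had 169 to 541 CPM (median 200) in IL6Ra/IL21R ko, against 311 to 441 CPM in total T, and fell by 0.72 ± 0.24 (q = 0.0249). The top value of Klf2 and of Klf4 was library M4 in both cases, outside the range of the other 6. Among the other nuclear factors Ier2 (0.94 ± 0.17, q = 0.000299), Btg2 (0.92 ± 0.18, q = 0.000376) and Ier5, a nuclear relative of IER2 (0.44 ± 0.16, q = 0.0371), rose. Btg1 (-1.17 ± 0.18, q = 4.33e-05) and Myc (-0.75 ± 0.18, q = 0.00244) fell. Btg2 had 1525 to 3617 CPM (median 3145) in IL6Ra/IL21R ko, against 1274 to 2063 CPM in total T, and Btg1 had 241 to 625 CPM (median 472), against 796 to 1313 CPM. Ier2 had 667 to 1028 CPM (median 912) in IL6Ra/IL21R ko, against 378 to 555 CPM in total T, and Ier5 had 642 to 1151 CPM (median 944), against 572, 575, 711, 751 and 953 CPM. The libraries of Ier2 and Btg1 were apart and those of Ier5 and Btg2 overlapped. Myc had 23.8 to 33.3 CPM (median 26.8) in IL6Ra/IL21R ko, against 38.7, 39.5, 40.5, 50.01 and 68.3 CPM in total T, with no overlap.

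Of the feedback genes 4 rose and 2 fell. Rhob had 1073 to 1491 CPM (median 1260) in IL6Ra/IL21R ko, against 342 to 691 CPM in total T, and rose by 1.205 ± 0.16 (q = 1.4e-05). Dusp6, a cytoplasmic ERK phosphatase, had 155 to 252 CPM (median 176) in IL6Ra/IL21R ko, against 88.8, 94.3, 103, 116 and 120 CPM in total T, and rose by 0.85 ± 0.18 (q = 0.00105). Neither gene's groups overlapped, so the ERK phosphatases Dusp5 and Dusp6 moved in opposite directions. Socs3, an inhibitor of signalling by cytokines of the IL-6 family, had 1468 to 2532 CPM (median 2030) in IL6Ra/IL21R ko, against 1045, 1071, 1140, 1315 and 1531 CPM in total T, and rose by 0.66 ± 0.13 (q = 0.000355). Ier3 had 661 to 1717 CPM (median 1057) in IL6Ra/IL21R ko, against 621, 824, 835, 904 and 1098 CPM in total T, and rose by 0.58 ± 0.19 (q = 0.0255). Dusp2 fell by 0.94 ± 0.29 (q = 0.0167), with 34.8 to 158 CPM (median 112) in IL6Ra/IL21R ko, against 168 to 348 CPM in total T. Dusp1 had 2016 to 3108 CPM (median 2450) in IL6Ra/IL21R ko, against 1778, 2038, 2212, 2755 and 2919 CPM in total T, and did not pass. Zfp36 had 5145 to 7988 CPM (median 5617) in IL6Ra/IL21R ko, against 2866 to 5085 CPM in total T, and Zfp36l1 had 477 to 663 CPM (median 508), against 209 to 507 CPM. Both RNA-decay genes rose by 0.69 (SE 0.15 and 0.17; q = 0.000929 and 0.004). Ppp1r15a and Gadd45b did not pass.

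With library set as a term, 21 of the 39 genes passed, against 14.3% of all genes, and 20 of them were among the 26; Fosl2, Egr2, Ier3, Zfp36l1, Hsp90aa1 and Hspa8 were lost and Maff was added. Within set B alone (6 IL6Ra/IL21R ko and 2 total T libraries) 17 passed, against 6.74%, 16 of them among the 26; Fos, Ier5, Zfp36 and Socs3 were lost beside the 6 just named. With females alone 20 passed, against 15.8%; Fosl2, Egr2, Ier3, Ier5, Klf2 and Zfp36l1 were lost. Nr4a3 fell by 3.36 with the set term and by 3.11 within set B, and Jun rose by 1.66 and by 1.40. Leaving out 1 library at a time gave 20 (without total T M1) to 31 (without total T F3) of the 39, against 19.2% and 30.3% of all genes. Fos was not called without total T M1 (0.41), nor Egr2 (0.53) nor Klf2 (0.79). Fosl2 was not called without total T F1 or F2 or IL6Ra/IL21R ko F1 or F2 (-0.41 to -0.33), Ier3 without total T F1 or M1 or IL6Ra/IL21R ko F3 (0.47 to 0.57), and Klf4 without total T F1, F2 or M1 or IL6Ra/IL21R ko F1 or F2 (-0.74 to -0.66). Ier5 was not called without total T F1, F4 or M1 or IL6Ra/IL21R ko F3, M1, M2 or M3 (0.37 to 0.43). Of the 12 macrophage markers 6 were higher and 1 was lower in IL6Ra/IL21R ko than in total T. All 6 fibroblast markers were higher, 3 of 6 dendritic-cell markers were lower and 1 was higher (Zbtb46, Xcr1, Clec9a and Ccr7 passed), and the 4 neutrophil markers tested were lower (sums of 0 to 2.23 CPM in IL6Ra/IL21R ko, against 8.03 to 228 CPM in total T). Of the endothelial markers Kdr and Flt1 were lower, of the mast-cell markers Kit was lower, Pdgfrb (mural) and Cd79b (B cell) were higher, and Cd4 and Il7r changed in opposite directions. The part of these cells in the result was not tested.

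**Figure D4:**
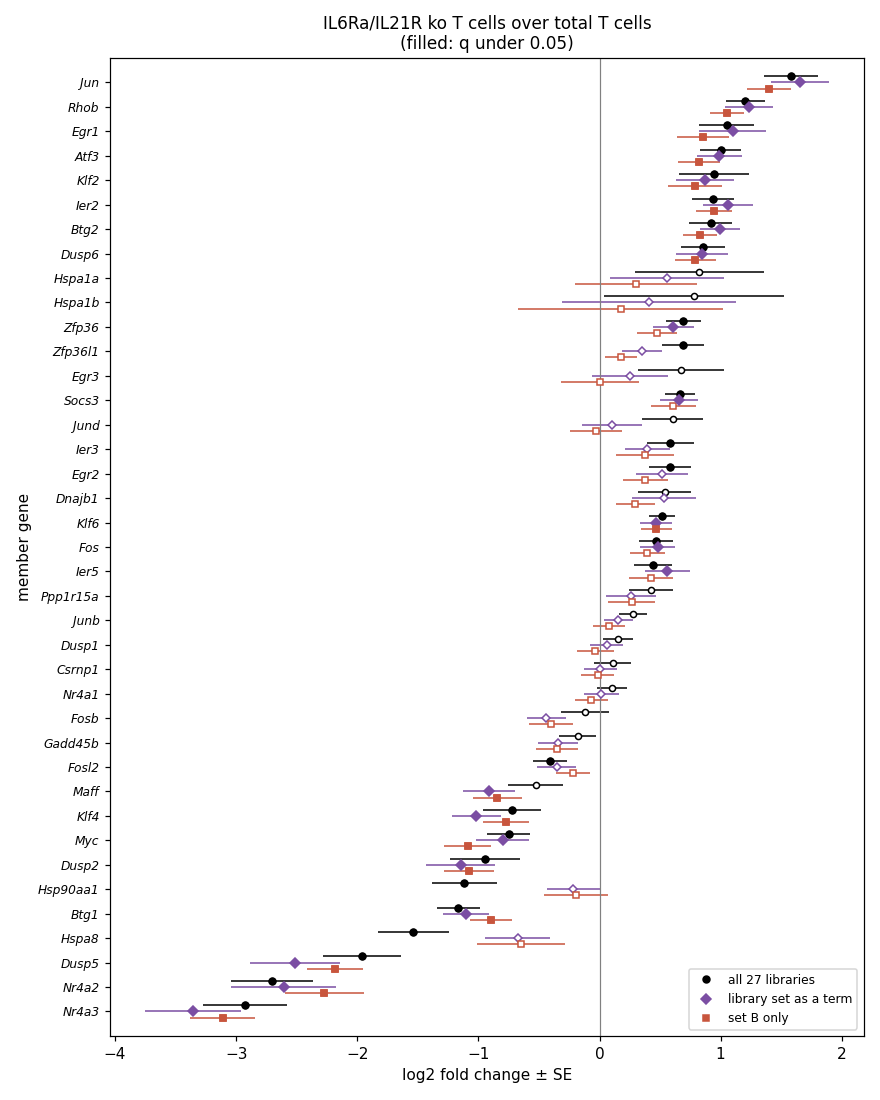
Log2 fold change ± SE of each of the 39 genes in IL6Ra/IL21R ko over total T, in all 27 libraries, with library set as a term and within set B only; filled symbols have q below 0.05. The 3 estimates agree in sign for Jun (1.58, 1.66 and 1.40) and Nr4a3 (-2.93, -3.36 and -3.11), while those of Hsp90aa1 are -1.12, -0.22 and -0.19.

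Set against no T, IL6Ra/IL21R ko differed in only 2 of the 39 genes, both lower (Hspa8 and Hsp90aa1), against 1.15% of all genes (1.03% lower). None of the 39 was without overlap, against 0.450% of all genes. At an unadjusted p below 0.05 there were 12 of the 39, against 10.8% of all genes. Jun had 1833 to 3534 CPM in IL6Ra/IL21R ko, against 1300 to 2727 CPM in no T, with a log2 fold change of 0.35 (95% interval -0.05 to 0.75), and Atf3 had 0.11 (-0.20 to 0.42). Nr4a3 had -0.95 ± 0.33 and Dusp5 -0.66 ± 0.31, with unadjusted p of 0.0088 and 0.0443 and q of 0.23 and 0.45. With library set as a term none of the 39 passed and 8 had an unadjusted p below 0.05 (11.2% of all genes), where 0.0711% of all genes passed. Within set B (6 and 2 libraries) 6 passed, against 0.559%: Jun, Btg2 and Rhob were higher, and Dusp5, Nr4a3 and Maff were lower. There, 22 had an unadjusted p below 0.05, against 12.3% of all genes, and Jun had 1833 to 2823 CPM in IL6Ra/IL21R ko, against 1300 and 1323 CPM in no T, without overlap.

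None of the 39 genes passed between IL22 ko and total T, where 0.0869% of all genes did (0.0632% higher, 0.0237% lower). At an unadjusted p below 0.05 there were 11 of the 39, against 17.3% of all genes. DESeq2 called 5 (Atf3, Nr4a2, Rhob, Hsp90aa1 and Hspa8), against 5.71%, and edgeR without the filter on low counts called 14, against 4.84%. Jun had 1013, 1277 and 1613 CPM in IL22 ko, against 570 to 981 CPM in total T, with a log2 fold change of 0.67 (95% interval 0.16 to 1.18; q = 0.145). Nr4a3 had 98.7, 114 and 252 CPM in IL22 ko, against 244 to 363 CPM in total T, with -0.98 (-1.86 to -0.11; q = 0.223). In both genes the IL22 ko male was nearest the total T libraries. Of the 39, 5 did not overlap between IL22 ko and total T, against 10.2% of all genes. Against no T none of the 39 passed either (9 at an unadjusted p below 0.05, against 9.37% of all genes; 1 by DESeq2, Hsp90aa1, against 1.15%), where 0.00790% of all genes did, and 3 did not overlap (Dusp1, Hspa1a and Hspa1b), against 6.59%. With library set as a term none passed against total T (12 at an unadjusted p below 0.05, against 10.1% of all genes), where 0.0158% of all genes did. Leaving out total T F3 or total T F4 gave 4 calls each against total T, where 6.24% and 4.78% of all genes passed.

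IL6Ra/IL21R ko and IL22 ko, a comparison added after the values were seen, also gave none of the 39 (14 at an unadjusted p below 0.05, against 8.59% of all genes; 3 by DESeq2, Jun, Nr4a3 and Myc, against 0.656%), where 0.00790% of all genes passed. Nr4a3 had 29.1 to 80.9 CPM (median 34.7) in IL6Ra/IL21R ko, against 98.7, 114 and 252 CPM in IL22 ko, without overlap (-1.94 ± 0.36, q = 0.0588). In all, 12 of the 39 did not overlap, against 4.25% of all genes. With library set as a term Nr4a3 passed (q = 0.023), and within set B, which holds 6 and 3 of these libraries, 8 of the 39 passed, against 1.36% of all genes. Those 8 were Jun, Ier2, Dusp6 and Rhob, higher, and Dusp5, Nr4a2, Nr4a3 and Myc, lower in IL6Ra/IL21R ko. Without IL6Ra/IL21R ko M2, 2 of the 39 passed in the fit over all libraries, against 0.529% of all genes, and without M4 1 did, against 0.0949%.

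The Tbet ko, IFNg ko and IL17AF ko libraries were all set C, and total T had no set C library, so set and T-cell genotype cannot be told apart in these 3 comparisons. Against total T, 12 of the 39 passed in Tbet ko (8 higher, 4 lower; 30.0% of all genes), 12 in IFNg ko (5 higher, 7 lower; 36.8%) and 10 in IL17AF ko (6 higher, 4 lower; 25.1%). With so few libraries, groups often do not overlap: 21 of the 39 were apart in Tbet ko, 16 in IFNg ko and 16 in IL17AF ko, against 45.4%, 44.6% and 41.6% of all genes. Jun had 1683 and 2381 CPM in Tbet ko, 1649 and 1822 CPM in IFNg ko and 1629 and 2270 CPM in IL17AF ko, against 570 to 981 CPM in total T. Zfp36l1 had 686 and 703 CPM in Tbet ko, 634 and 656 CPM in IFNg ko and 439 and 762 CPM in IL17AF ko, against 209 to 507 CPM in total T. Jun and Zfp36l1 passed as higher in all 3 groups (log2 fold changes of 1.32, 1.09 and 1.26, and of 1.07, 0.96 and 0.86). Btg1 had 336 and 397 CPM in Tbet ko, 271 and 301 CPM in IFNg ko and 364 and 494 CPM in IL17AF ko, against 796 to 1313 CPM in total T, and passed as lower in all 3 (-1.53, -1.89 and -1.31). Socs3 and Atf3 also passed as higher in all 3 (0.97, 0.95 and 0.62, and 0.68, 0.56 and 0.81), and Dusp5 and Hsp90aa1 as lower (-1.61, -2.28 and -1.604, and -1.48, -1.297 and -1.22). Nr4a2 had 42.3 and 49.4 CPM in Tbet ko, 40.1 and 47.4 CPM in IFNg ko and 62.2 and 104 CPM in IL17AF ko, against 109 to 315 CPM in total T, and passed as lower in Tbet ko and IFNg ko (-1.99 and -2.06) but not in IL17AF ko (-1.14, q = 0.0919). Nr4a3 had 141 and 184 CPM in Tbet ko, 168 and 207 CPM in IFNg ko and 104 and 256 CPM in IL17AF ko, against 244 to 363 CPM in total T, and passed in none of the 3.

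These calls rested on 2 libraries a group. Leaving one out leaves a group of 1 library, which is then assumed to vary like the other groups, and fewer genes pass at that size. The number of the 39 called was 3 without Tbet ko F1 and 7 without F2 (11.7% and 15.8% of all genes). It was 6 and 9 without IFNg ko F1 and F2 (16.2% and 33.6%), and 0 and 4 without IL17AF ko F1 and F2 (7.91% and 10.3%). Without Tbet ko F1 Jun was 1.05 (q = 0.0525). Without IL17AF ko F1 Jun was 1.00, Zfp36l1 0.41 and Btg1 -1.10, and none passed. With the 2 Tbet ko columns summed as 1 library, where the spread again comes from the other groups, 5 of the 39 passed, against 12.8% of all genes. The fibroblast sums of these 6 libraries, 2217 to 3607 CPM, lay above the 244 to 400 CPM of total T, and the part of those cells was not tested. Taking all 7 groups at once, 25 of the 39 differed somewhere, against 38.4% of all genes.

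The heat-shock genes split into 2 patterns. Hspa1a and Hspa1b, which encode the inducible HSP70 and are near-identical copies so that their reads can be shared out between them, varied from library to library within a group. Hspa1a had 26.0 to 418 CPM (median 84.9) in IL6Ra/IL21R ko, 33.2, 39.4 and 46.8 CPM in IL22 ko, 35.0, 42.0, 47.9, 49.1 and 70.0 CPM in total T and 47.0 to 307 CPM (median 113) in no T. Hspa1b had 11.3 to 587 CPM (median 68.3) in IL6Ra/IL21R ko, 23.4, 27.8 and 31.9 CPM in IL22 ko, 29.5, 34.1, 44.3, 53.6 and 54.4 CPM in total T and 35.0 to 501 CPM (median 87.6) in no T. The highest libraries were IL6Ra/IL21R ko M4 and no T M1 for both, and Hspa1b differed 51.9-fold between its highest and lowest library. In the main fit over all 27 libraries neither gene passed in any pairwise comparison. Without the filter on low counts both passed in every pairwise comparison of groups but IL22 ko over total T (Hspa1b alone) and IL6Ra/IL21R ko over no T (neither). Of all genes 1.98 to 16.9% passed in those comparisons of groups. In total T over no T, Hspa1a passed with library set as a term (-1.27, q = 0.0311), and within set A both passed (-1.86, q = 0.00632, and -2.06, q = 0.0148). In set A, Hspa1a had 35.0 to 47.9 CPM in total T, against 85.9 to 307 CPM in no T, and Hspa1b 29.5 to 44.3 CPM, against 58.3 to 501 CPM, both without overlap. Within set B the values were -0.01 and 0.20. Over all libraries, summed they had a log2 fold change of -1.23 ± 0.63 in total T over no T (q = 0.175). Dnajb1, an HSP40 co-chaperone of HSP70, had 113, 116, 132, 184 and 187 CPM in total T, against 163 to 574 CPM (median 236) in no T. It fell by 0.85 ± 0.22 (q = 0.00821), and the 2 highest total T values were the set B libraries.

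Hsp90aa1 and Hspa8 differed between library sets A and B. Hspa8, the constitutive HSC70 and the most abundant heat-shock gene here, had 535 and 686 CPM in the set B libraries of total T and 1118, 1440 and 1668 CPM in the set A ones. In no T it had 455 and 485 CPM in set B and 971 to 1586 CPM in set A. The set B libraries of IL6Ra/IL21R ko had 233, 267, 306, 395, 495 and 827 CPM of Hspa8. Hsp90aa1, the inducible HSP90, had 104 and 105 CPM in set B and 216, 237 and 262 CPM in set A of total T, and 94.96 and 114 CPM in set B and 181 to 334 CPM in set A of no T. Within total T and within no T the values of both genes split by set, with no overlap. Over all libraries Hspa8 fell by 1.54 ± 0.29 (q = 0.000342) and Hsp90aa1 by 1.12 ± 0.27 (q = 0.00298) in IL6Ra/IL21R ko relative to total T, and by 1.28 ± 0.27 (q = 0.0141) and 1.15 ± 0.25 (q = 0.0155) relative to no T. With library set as a term the values were -0.68 (q = 0.0934) and -0.22 (q = 0.562) relative to total T, and -0.37 and -0.23 relative to no T, and none passed. Relative to no T, Hsp90aa1 was also lost without no T F2 or M1 (-1.04 and -0.96) and Hspa8 without no T M1 (-1.15).

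**Figure D5:**
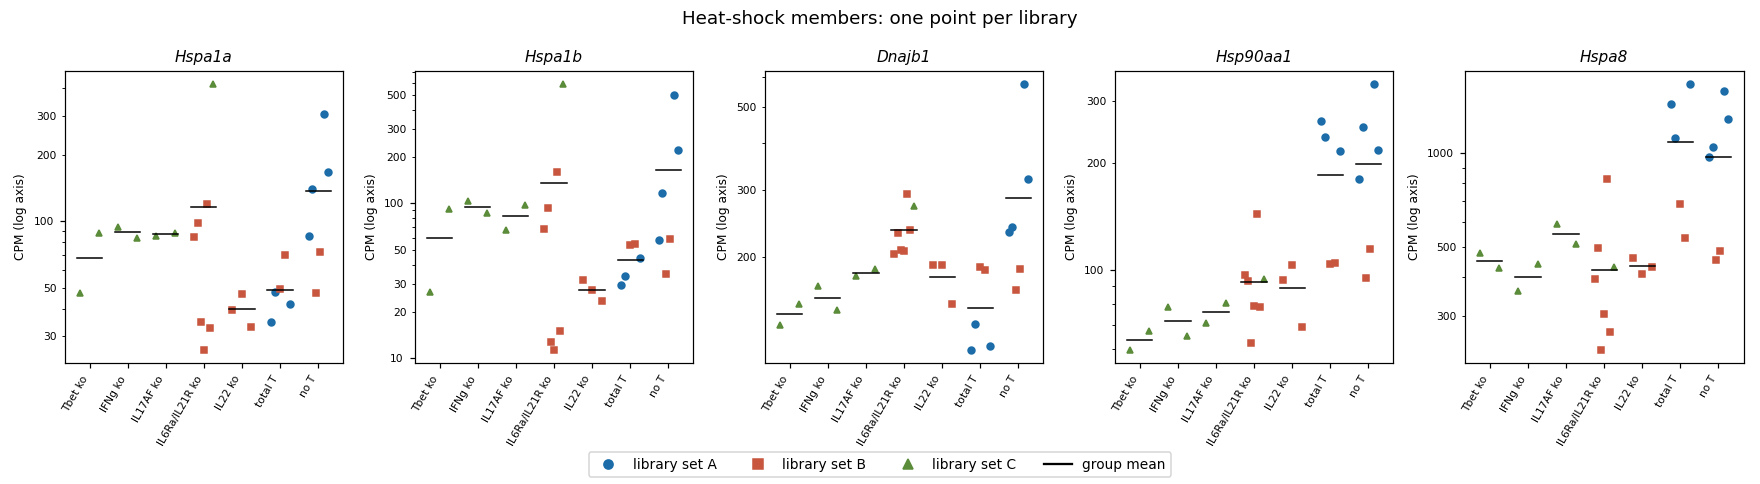
Level in CPM (log axis) of the 5 heat-shock genes, with 1 point per library, the library set as symbol and a bar at the group mean. Hsp90aa1 and Hspa8 are higher in set A (circles) than in set B (squares) within both total T and no T, and single libraries reach 418 CPM for Hspa1a and 587 CPM for Hspa1b in IL6Ra/IL21R ko.

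None of the 39 genes passed between males and females, where 0.0553% of all genes did (0.0316% higher, 0.0237% lower in males). At an unadjusted p below 0.05 there were 3, against 7.28% of all genes, and DESeq2 called 0, against 0.0869%. The largest difference was that of Hspa1b, at 1.496 ± 0.58 higher in males (q = 0.678). The interaction of sex with T-cell group, over IL6Ra/IL21R ko and no T, passed in none of 12766 genes. At an unadjusted p below 0.05 there were 724 genes and 6 of the 39 (lowest q 0.81). In that test the log2 fold change of IL6Ra/IL21R ko over no T was greater in males than in females by 1.46 ± 0.46 for Dusp5 and by 1.52 ± 0.57 for Nr4a3, neither past the adjustment. Sex and library set are partly mixed here: both no T males are set A, no T F3 and F4 are set B, and no IL6Ra/IL21R ko library is set A. In no T, Dusp5 had 31.8 to 76.1 CPM in set A and 111 and 146 CPM in set B. Nr4a3 had 36.8 to 96.7 CPM in set A and 118 and 119 CPM in set B. The part of library set was not tested.

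Genes of the surrounding pathway, listed by function, were tested in the same fit, where 11.7% of all genes were higher and 9.39% lower in total T than in no T. Of 35 other early-response genes 12 rose and 2 fell in total T relative to no T (median log2 fold change 0.20, against -0.02 over all genes). Sgk1, a kinase of the early glucocorticoid and growth-factor response, averaged 403 ± 148 CPM in total T and 136 ± 36.1 CPM in no T (SD, n = 5 and 6; 1.55 ± 0.27, q = 0.000246 by edgeR). Sik1, a salt-inducible kinase whose gene is a target of CREB, averaged 181 ± 56.0 and 64.8 ± 18.2 CPM in total T and no T (1.49 ± 0.27, q = 0.000418 by edgeR). Tob2, a relative of the BTG proteins, rose by 0.64 ± 0.12 (q = 0.000426). Of 14 NF-kB early feedback genes 5 rose and 1 fell. Nfkbie, an inhibitor of NF-kB, averaged 197 ± 63.5 CPM in total T and 68.8 ± 15.6 CPM in no T, and the cytokine gene Il1b 2065 ± 552 and 592 ± 228 CPM (SD, n = 5 and 6). Both rose, by 1.52 ± 0.23 (q = 8.66e-05) and 1.80 ± 0.33 (q = 0.000459), as did Relb, an NF-kB subunit (0.77 ± 0.16, q = 0.00131).

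Of 17 upstream kinases and factors tested, 3 rose, among them Braf (0.71 ± 0.19, q = 0.00946), a kinase at the top of the ERK cascade, and Mapk9 (0.33 ± 0.11, q = 0.0329), a JUN kinase. Of 11 further MAP kinase feedback genes 1 rose and 2 fell, with Dusp7 (-1.06 ± 0.25, q = 0.00335) and Dusp8 (-0.72 ± 0.21, q = 0.0147) lower and Dusp10 (0.79 ± 0.28, q = 0.0455) higher. Of 21 other heat-shock genes 2 fell, the co-chaperone genes St13 (-0.34 ± 0.10, q = 0.0165) and Dnajb4 (-0.49 ± 0.17, q = 0.0445). Of 14 genes of the unfolded protein and integrated stress responses 2 rose and 1 fell: Edem1 (0.60 ± 0.11, q = 0.000425) and Calr (0.35 ± 0.11, q = 0.0285), of protein quality control in the endoplasmic reticulum, were higher and Trib3, a target of ATF4 and CHOP, was lower (-1.66 ± 0.57, q = 0.04). When library set was a term (14.4% of all genes higher, 12.6% lower), the counts higher and lower in total T were 13 and 3 of the early-response genes, 6 and 1 of the NF-kB genes, 5 and 1 of the upstream genes, 2 and 4 of the MAP kinase feedback genes, 1 and 4 of the heat-shock genes and 2 and 1 of the stress-response genes.

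In IL6Ra/IL21R ko relative to total T, where 13.1% of all genes were higher and 15.1% lower, the counts higher and lower were 1 and 12 of 35 early-response genes, 2 and 5 of 14 NF-kB genes, 1 and 4 of 17 upstream genes, 3 and 3 of 11 MAP kinase feedback genes, 3 and 2 of 21 heat-shock genes and 1 and 2 of 14 stress-response genes. When library set was a term (6.33% of all genes higher, 7.99% lower) they were 3 and 12, 1 and 7, 2 and 1, 1 and 1, 1 and 0, and 0 and 2 in the same order of lists. These comparisons share the total T libraries. In IL22 ko relative to total T no gene of these lists passed.

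Some members overlap other genes in the annotation, and the libraries are unstranded, so their counts can be affected by the neighbour's reads. How reads in such overlaps were counted is not stated. Such an overlap holds for Jun with the antisense gene Junos, for Junb with Prdx2, for Ppp1r15a with Tulp2, for Dusp1 with Ergic1, and, on the same strand, for Csrnp1 with the abundant macrophage gene Cx3cr1.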

How the data were processed

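The deposited values are whole-number counts per gene for 27 libraries, single-end and unstranded per the labels' protocols. The submitters' processing notes name STAR 2.4.0j, featureCounts, DESeq2 1.20.0 and GRCm38, without saying which step each served. The table's name speaks of normalized values, but it holds whole numbers whose totals differ between libraries, and it was treated as counts. Which markers the sort gated on is not stated in these sources. Rows with no gene symbol held 0.0859 to 0.121% of counts.

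Genes averaging 10 or more normalized counts over the libraries were tested with edgeR 4.0.16 (quasi-likelihood F test, TMM, R 4.3.3) in 1 model of T-cell group and sex over all 27 libraries, with Benjamini-Hochberg adjustment over the 12661 genes tested. The procedure was tested on simulated data. DESeq2 1.42.0, RLE normalization, no filter on low counts, females only, library set as a term, single library sets, summed Hspa1a and Hspa1b, summed Tbet ko libraries and each library left out were alternatives. Library sets came from average-linkage clustering of ribosomal-protein levels and are not a batch that the labels name. No pair of replicates within a group was identical, and their counts differed by more than sampling noise (chi-square per degree of freedom 8.97 to 138 over 52 pairs).

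The 39 genes, the related lists and the tests were chosen with earlier results of these data known. Genes that passed in total T over no T or IL6Ra/IL21R ko over total T, or that had the highest level of their role class, are described by value. At most 3 related genes per list are named, those with the smallest p among the genes that passed. One gene that this rule selects is not reported here. The IL6Ra/IL21R ko against IL22 ko comparison, the summed counts and the left-out libraries of the interaction tests were added after the data were seen.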

Additional observations from a re-analysis of the deposited data

Results flagged for a closer look

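In groups of 4 to 10 libraries, 117 gene-by-group sets of values were searched for a single library far from the others. The nominal rate of such finds is about 1 in 20, but genes share libraries, so the sets are not independent and that rate is only rough. The search found 10, all on the high side. Of these, 5 were in IL6Ra/IL21R ko M4, the one library of that group in set C and the one with its highest fibroblast-marker sum (3540 CPM). It had 3469 CPM of Fosb (next highest 1949), 888 CPM of Klf2 (387), 541 CPM of Klf4 (239), 418 CPM of Hspa1a (119) and 587 CPM of Hspa1b (159). IL6Ra/IL21R ko M2 held 4 more, with 64.0 CPM of Dusp5 (next highest 47.4), 70.4 CPM of Nr4a2 (33.9), 80.9 CPM of Nr4a3 (37.2) and 144 CPM of Hsp90aa1 (96.4). The last was Egr2 at 265 CPM in total T F3, where the next highest total T library had 169 CPM. The columns of IL6Ra/IL21R ko M2 and M4 are among those whose names list several numbers as a pool would. What sets the flagged libraries apart was not tested.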

How the results depend on the processing

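No paired analysis was possible because the columns carry no replicate numbers of the labels. Of the log2 fold changes of called genes, 1 turned sign: Dnajb1 in total T over no T within set B (0.0814). The share of all genes called is given in brackets after each count, and for the last run of left-out libraries in sentences after it. The count of the 39 genes called in total T over no T was 9 with females only (12.4%) and 0 within set B (0.746%). It was 12 to 18 with 1 library left out (13.6 to 23.5%). In IL6Ra/IL21R ko over total T it was 17 within set B (6.74%) and 20 to 31 with 1 library left out (19.2 to 30.3%). Without the filter on low counts, 25164 genes were tested. The counts were then 14 in IL22 ko over total T (4.84%), 10 in IL6Ra/IL21R ko over no T (2.24%) and 9 in IL22 ko over no T (1.98%). They were 20 in Tbet ko (14.4%) and 19 in IL17AF ko (12.5%) over total T, 14 in IL6Ra/IL21R ko over IL22 ko (2.22%) and 3 in males over females (1.15%). DESeq2 gave 5 in IL22 ko over total T (5.71%) and 1 in IL22 ko over no T (1.15%). It gave 3 in IL6Ra/IL21R ko over IL22 ko (0.656%) and 3 in IL6Ra/IL21R ko over no T (2.02%). For IL6Ra/IL21R ko over no T the count was 0 with females only (0.111%), 0 with the set term (0.0711%) and 6 within set B (0.559%). With 1 library left out it was 0 to 3 (0.570 to 2.23%), and 0 without no T M1. For IL6Ra/IL21R ko over IL22 ko it was 1 with the set term (0.142%), 8 within set B (1.36%) and 0 to 2 with 1 library left out (0 to 0.529%). Leaving out 1 library gave 0 to 4 in IL22 ko, 3 to 16 in Tbet ko (3 without F1, 7 without F2), 6 to 12 in IFNg ko and 0 to 12 in IL17AF ko over total T, 0 in IL22 ko over no T, 20 to 28 over all groups and 0 to 6 in the interaction of library set and T cells. The Tbet ko libraries summed gave 5. Set A, set B and females only hold fewer libraries than the main fit, and the cause of these changes was not tested.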
